A study of Mus musculus with 31 samples.

Results

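Macrophages and monocytes of epididymal fat and liver were followed through 39 genes listed by symbol. They were chosen because they mark these cells, with earlier results of these data known. Of the 39, 38 were in the deposited table of epididymal fat (eWAT, a visceral depot) among 15987 genes, 37 were in the liver table among 13677, and 36 were in both, among 12735 shared genes. Clec4f in eWAT, and Ly6c2 and Ccl2 in liver, were not analysed here. Every animal, whatever its arm, was a C57BL/6 male of the F1 generation, 24 weeks old, weaned onto chow and kept on LFD for 18 weeks after reaching 6 weeks. The diet tag of a sample (LFD, HFD or HFLFD, called LF, HF and HFLF here) was therefore read as what the paternal line had been given; the series title is the only source for that reading. eWAT had 4 LF, 6 HF and 6 HFLF libraries, and liver had 4, 5 and 6. Nothing in the labels says that the numbered samples of an arm came from separate litters, so p-values measure the spread between these animals. Values are CPM, a gene's counts scaled to the library's total.

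Tissue macrophages arise from embryonic precursors or from blood monocytes and depend on the growth factor receptor encoded by Csf1r. Fat holds resident macrophages around vessels and lobules, and obesity is known to add monocyte-derived cells that enter through the receptor Ccr2. In liver most macrophages are Kupffer cells, which line the sinusoids, clear particles and aged red cells, and carry Clec4f, Timd4, Vsig4 and Marco. Much of this gene programme is known to be driven by PU.1, the ETS factor encoded by Spi1, whose purine-rich element holds GAGGAA, and by PU.1 together with interferon regulatory factors at a composite element, GGAA and then, after any 2 bases, GAAA. RefSeq promoter windows, from 250 bases before to 50 after a gene's start on GRCm38.p6, were at hand for 29 of the 39 genes. GAGGAA stood on either strand in 18 of the 29 (62.1%) and in 31.3% of all 27025 genes with such a window. The composite stood on either strand in 5 of the 29 (17.2%) and in 3.16% of all genes. The 2 motifs share GGAA and can overlap, and a match describes letters, not binding. The stretches of 100 bases below lie upstream of the RefSeq start and belong to genes named for their values. Marco and Ly6c2 had large arm differences in eWAT. Vsig4 was, of the 36 genes measured in both tissues, the most abundant in liver relative to eWAT. Timd4 and Folr2 are genes of resident macrophages, and the ratio of C1qc to C1qb varied little. Capitals mark GAGGAA on either strand in Marco, Ly6c2, Vsig4, C1qb and C1qc, and the composite in Timd4 and Folr2.
Marco (chr1:120505118-120505217, minus strand): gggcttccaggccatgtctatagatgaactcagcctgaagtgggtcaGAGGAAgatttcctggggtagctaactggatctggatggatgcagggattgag
Ly6c2 (chr15:75112027-75112126, minus strand): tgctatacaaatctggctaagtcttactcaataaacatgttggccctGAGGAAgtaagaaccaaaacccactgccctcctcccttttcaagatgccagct
Vsig4 (chrX:96293439-96293538, minus strand): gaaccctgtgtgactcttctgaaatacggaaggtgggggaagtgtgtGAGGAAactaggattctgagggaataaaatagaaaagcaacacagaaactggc
Timd4 (chr11:46810680-46810779, plus strand): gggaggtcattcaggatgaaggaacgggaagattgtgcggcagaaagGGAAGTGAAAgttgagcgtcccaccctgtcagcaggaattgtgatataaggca
Folr2 (chr7:101857274-101857373, minus strand): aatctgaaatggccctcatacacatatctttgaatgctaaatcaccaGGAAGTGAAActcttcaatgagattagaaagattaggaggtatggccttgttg
C1qb (chr4:136886201-136886300, minus strand): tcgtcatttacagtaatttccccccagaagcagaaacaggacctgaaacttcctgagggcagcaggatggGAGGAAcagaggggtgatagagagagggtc
C1qc (chr4:136893055-136893154, minus strand): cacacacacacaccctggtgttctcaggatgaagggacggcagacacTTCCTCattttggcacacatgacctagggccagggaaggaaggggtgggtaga

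Marco itself spans chr1:120474538-120505024 in the GENCODE M21 annotation of GRCm38, Vsig4 chrX:96247203-96293438, Timd4 chr11:46810800-46844332 and Ly6c2 chr15:75108158-75111970. The C1q genes are neighbours on chromosome 4, with C1qa at chr4:136895917-136898803, C1qc at chr4:136889804-136893065 and C1qb at chr4:136880129-136886187. Some counts cannot be assigned to a gene with certainty. Itgam shares 68.7% of its exon bases with the read-through gene Gm49368 on the same strand, and Folr2 63.1%, Ms4a6c 53.1%, Csf1r 15.1% and Ncf1 11.1% with a gene on the opposite strand, and no source used here gives the strand setting of the counting. Ly6c2 and Ly6c1, Lyz2 and Lyz1, the Fcgr genes and the Ms4a6 genes are close copies whose reads the counting may have split.

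Library totals ran from 9278083 to 27230205 counts in eWAT and from 9225373 to 17268415 in liver, and 3 counts, the floor for detection (which covers counting error only), came to between 0.110 and 0.325 CPM. The tissues matched their labels: adipocyte markers summed to 26839.5 CPM or more in each eWAT library and hepatocyte markers to 82136 or more in each liver library. Several libraries stood apart. In eWAT, B cell markers summed to 464 CPM in LF 2, 178 in HF 5 and 83.9 in HF 3, against 8.30 to 26.3 in the other 13. Testis markers summed to 23.6, 17.2, 76.8 and 116 CPM in LF 3, LF 6, HF 2 and HF 6. LF 3 also had the highest fibroblast sum (5835 CPM, against 2219.9 to 3899 in the other 15) and the highest hepatocyte sum (6888 CPM). Epididymal markers were not in the eWAT table (0 of 6). In liver no such group was seen, but LF 6 and HF 2 were high for most of the listed genes.

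In eWAT the listed genes were less abundant in HFLF than in LF, and 37 of 38 had a log2 fold change below 0, as did 47.9% of all genes; 1 was above, beside 52.1%. The mean log2 CPM over the 38 genes was 5.40, 5.62, 4.73 and 4.75 in LF 2, 3, 5 and 6, 4.61 to 5.34 (median 4.81) in HF, and 4.70, 4.77, 4.11, 4.70, 4.42 and 4.04 in HFLF 1 to 6. LF 3, LF 2 and HF 2 were the high libraries, holding the highest value of 15, 10 and 8 genes, and HFLF 6 and HFLF 3 the low ones, holding the lowest value of 17 and 11. The arms overlapped in this mean, since HFLF 2 lay above LF 5 and LF 6. The median log2 fold change of the 38 genes was -0.70 in HFLF against LF, and 0.01 over all 15987 genes. With edgeR's quasi-likelihood test and Benjamini-Hochberg adjustment over all genes, 0 of the 38 and 0 of all genes passed 0.05. At an unadjusted p under 0.05, 25 of the 38 were lower and 1, Cd163, was higher, while 7.06% of all genes were lower and 3.78% higher. DESeq2, the alternative test, called 69 genes, of which 6 were listed here: Marco, Clec4n, Ly6c2, Aif1, Ms4a6c and Cfp. In RNA from whole tissue, fewer macrophages and less RNA per macrophage cannot be told apart.

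**Figure D1:**
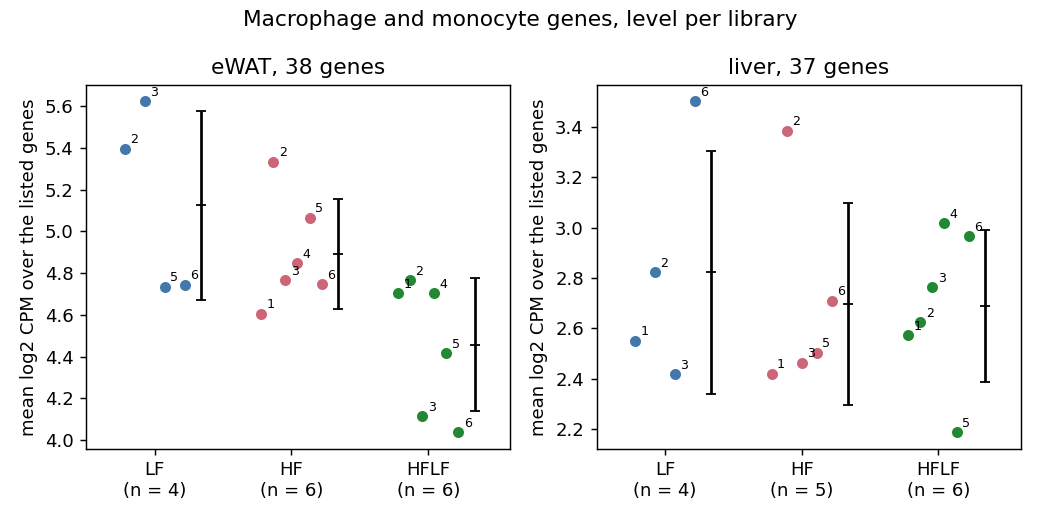
Mean log2 CPM over the listed genes in each library (points, numbered by replicate), by arm, for eWAT (38 genes) and liver (37 genes), with separate axes. Black bars give the arm's mean and SD. In eWAT the HFLF points lie between 4.04 and 4.77, and in liver LF 6 and HF 2 stand above the rest at 3.50 and 3.38.

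The eWAT difference was sensitive to single LF libraries. Without LF 3 the median in HFLF against LF was -0.49 and 14 genes were lower at an unadjusted p under 0.05. Without LF 5 the median was -0.86 and 27 were lower, and Marco then passed (log2 fold change -2.73 ± 0.43, adjusted p = 0.0424 by edgeR). Leaving out the 4 libraries high in testis markers (LF 3, LF 6, HF 2 and HF 6) gave -0.54 and 17 genes. That fit kept only LF 2 and LF 5 in the LF arm. Leaving out the 3 libraries high in B cell markers gave -0.63 and 21 genes. For these fits the share of all genes at that threshold was not computed. Whether the counts of listed genes moved with that share is therefore not known.

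Among the 11 genes of lineage and lysosome, all were lower in HFLF than in LF, 8 of them at an unadjusted p under 0.05, with a median log2 fold change of -0.75. Of all genes 47.9% were below 0 in this comparison and 7.06% lower at an unadjusted p under 0.05. The same shares stand beside the counts of the other groups below. These groups are parts of the same 38 genes in the same libraries, so their counts are not separate results. Csf1r, the receptor for CSF1, was 251, 314, 194 and 222 CPM in LF 2, 3, 5 and 6, 182 to 285 (median 237) in HF and 144 to 217 (median 193) in HFLF. The HFLF range overlapped the lower LF libraries, and the log2 fold change was -0.38 ± 0.14 (unadjusted p = 0.0151, adjusted p = 0.336 by edgeR). Adgre1, which encodes the macrophage surface protein F4/80, was 64.3, 149, 50.5 and 71 CPM in LF 2, 3, 5 and 6, 53.7 to 139 (median 60.9) in HF and 31.2 to 67.2 (median 45.6) in HFLF. Its values in LF 3 and HF 2 were the highest, and the difference of HFLF from LF was -0.74 ± 0.33. Cd68, a lysosomal glycoprotein of phagocytes, was 73.5, 185, 59.3 and 104 CPM in LF 2, 3, 5 and 6, 53.2 to 188 (median 67) in HF and 29.8 to 88.2 (median 49.99) in HFLF, with the same pair of libraries on top and a log2 fold change of -0.91 ± 0.39. Lyz2, lysozyme, was 1029, 1275, 494 and 533 CPM in LF 2, 3, 5 and 6, 491 to 1117 (median 679) in HF and 276 to 709 (median 501) in HFLF. LF 3, HF 2 and LF 2 were its high libraries, and the log2 fold change was -0.67 ± 0.30. Per kilobase of exon Lyz2 was the most abundant of the 38 genes in eWAT, at 509.5 CPM per kb over all 16 libraries, followed by C1qa at 208 and C1qb at 188. Ms4a6c, a membrane protein of myeloid cells, was among the 3 listed genes of smallest p, at 9.73 ± 4.18 CPM in LF (SD, n = 4) and 4.76 ± 0.867 in HFLF (SD, n = 6). Its log2 fold change was -0.97 ± 0.24 (adjusted p = 0.266 by edgeR). Aif1, an actin-binding protein of macrophages, was 12.9, 12.6, 5.25 and 6.07 CPM in LF 2, 3, 5 and 6, 6.08 to 9.15 (median 6.41) in HF and 2.35 to 5.84 (median 4.27) in HFLF. LF 2 and LF 3 stood above all other libraries, and the log2 fold change was -1.06 ± 0.26.

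**Figure D2:**
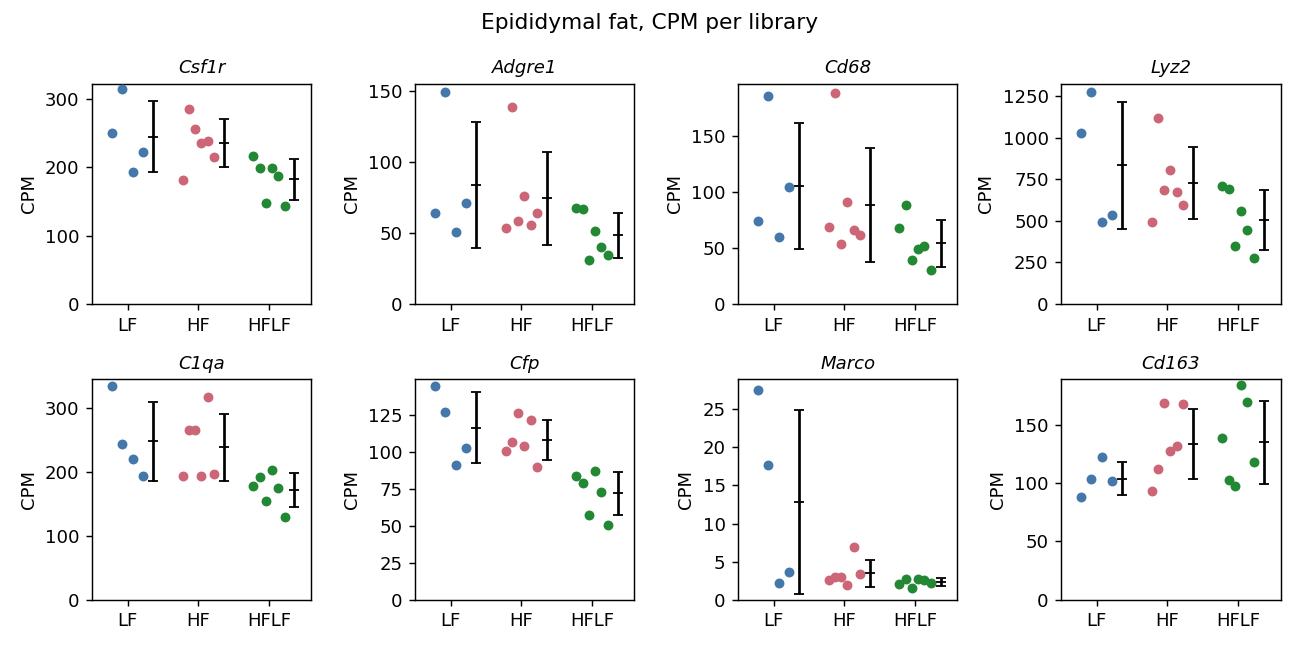
CPM per library (points) in eWAT for 8 listed genes by arm (LF, n = 4; HF and HFLF, n = 6), each axis from 0, with black bars for mean and SD. Cfp is lower in every HFLF library than in every LF and HF library, Marco is high in 2 LF libraries alone, and Cd163 is not lower in HFLF.

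The genes C1qa, C1qb and C1qc encode the chains of C1q, which starts the classical pathway, and Cfp encodes properdin, which stabilises the convertase of the alternative pathway. All 4 were lower in HFLF than in LF at an unadjusted p under 0.05 and also lower than in HF. Cfp was 145, 127, 91.1 and 103 CPM in LF 2, 3, 5 and 6, 90.1 to 127 (median 105) in HF and 50.5 to 87.4 (median 76.3) in HFLF. Every HFLF library was below every library of the other 2 arms. Its log2 fold change was -0.65 ± 0.14 against LF (unadjusted p = 0.000324, adjusted p = 0.266) and -0.52 ± 0.13 against HF (adjusted p = 0.395), by edgeR. DESeq2 called Cfp in both comparisons, at adjusted p = 0.0188 and 0.0254. Leaving out 1 library at a time moved the difference from LF between -0.74 and -0.55. C1qa was 335, 243, 220.4 and 193 CPM in LF 2, 3, 5 and 6, 193 to 318 (median 231) in HF and 129 to 204 (median 177) in HFLF. It was highest in LF 2 and HF 5, and HFLF overlapped both arms (log2 fold change -0.48 ± 0.16 against LF). C1qc differed by -0.54 ± 0.14 from LF with no overlap between the arms. In HFLF against LF, 3 of the 38 genes had ranges that did not overlap, Cfp, C1qc and Ly6c2, all lower, beside 0.970% of all genes, and 0 were higher, beside 0.250%. In HFLF against HF it was Cfp, Aif1 and Msr1, beside 0.444%, and 0 were higher, beside 0.225%.

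Of the 7 resident-macrophage genes measured in eWAT, 6 were lower in HFLF than in LF, 4 at an unadjusted p under 0.05. Whether the 7 genes differed from each other in this was not tested. Marco, a scavenger receptor that binds bacteria and particles, was 27.6, 17.7, 2.21 and 3.69 CPM in LF 2, 3, 5 and 6, 1.88 to 6.93 (median 2.98) in HF and 1.54 to 2.77 (median 2.43) in HFLF. LF 2 and LF 3 stood above every other library, while LF 5 and LF 6 lay among the HF and HFLF values. The fitted log2 fold change was -2.38 ± 0.52 for HFLF (adjusted p = 0.266) and -1.87 ± 0.51 for HF (adjusted p = 0.689) against LF, by edgeR, and without LF 2 it was -1.69 and -1.17. Both comparisons use the same 4 LF libraries. Timd4, a receptor for phosphatidylserine on dying cells, was 17.8, 2.59, 7.59 and 3.45 CPM in LF 2, 3, 5 and 6, 3.38 to 8.9 (median 4.28) in HF and 2.6 to 4.91 (median 3.64) in HFLF, with LF 2 highest and HF 5 next. Vsig4, a complement receptor of the immunoglobulin family, was 6.93, 2.8, 2.21 and 1.48 CPM in LF 2, 3, 5 and 6, 0.268 to 5.16 (median 1.68) in HF and 0.155 to 2.57 (median 1.38) in HFLF. LF 2 and HF 5 were again on top, and these 2 libraries also had the highest B cell marker sums; the part of those cells in Marco, Timd4 and Vsig4 was not tested. Without the 3 libraries high in B cell markers, Marco differed by -1.69 between HFLF and LF. Cd163, the haptoglobin-haemoglobin scavenger receptor, was 87.8, 103, 122 and 102 CPM in LF 2, 3, 5 and 6, 93.3 to 169 (median 129.6) in HF and 97.9 to 184 (median 128) in HFLF. It was the only listed gene with a fitted value above LF in HFLF, at 0.42 ± 0.20 (unadjusted p = 0.0485, adjusted p = 0.458 by edgeR), and the arms overlapped. Relative to Csf1r, per kilobase, Cd163 was 0.348 to 0.668 in LF, 0.416 to 0.826 in HF and 0.544 to 0.981 in HFLF. Folr2, a folate receptor of resident macrophages, had 24.3 ± 4.11 CPM in LF, 24.5 ± 5.06 in HF and 17.7 ± 2.79 in HFLF (SD, n = 4, 6 and 6). The mannose receptor gene Mrc1 differed by -0.26 ± 0.15 and the hyaluronan receptor gene Lyve1 by -0.18 ± 0.35 from LF in HFLF.

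Fc receptors bind antibody and signal through adaptors. All 5 genes of this group were lower in HFLF than in LF, 4 at an unadjusted p under 0.05, with a median log2 fold change of -0.73. Fcgr4, an activating receptor for IgG, was 3.75, 9.81, 2.03 and 1.48 CPM in LF 2, 3, 5 and 6, 0.896 to 6.33 (median 2.59) in HF and 0.701 to 2.75 (median 1.66) in HFLF, with LF 3 and HF 2 as the high libraries and overlap between all arms. Its log2 fold change was -1.28 ± 0.52, beside -1.32 ± 0.42 for the high-affinity receptor Fcgr1, -0.47 ± 0.23 for Fcgr3, -0.73 ± 0.22 for the common gamma chain Fcer1g and -0.73 ± 0.32 for the adaptor Tyrobp. The ratio of Fcer1g to Tyrobp was 0.375 to 0.672 per kilobase over the 16 libraries.

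All 5 monocyte and recruitment genes were lower in HFLF than in LF, 2 at an unadjusted p under 0.05, with a median log2 fold change of -0.42. Ly6c2, a surface antigen of classical monocytes, was 10.7, 2.26, 3.73 and 2.05 CPM in LF 2, 3, 5 and 6, 1.03 to 4.5 (median 1.88) in HF and 1.09 to 1.81 (median 1.22) in HFLF. LF 2 was highest, and all 4 LF libraries lay above all 6 HFLF libraries (log2 fold change -1.75 ± 0.42, adjusted p = 0.266 by edgeR). Ccr2, the chemokine receptor that draws monocytes into tissue, was 59.6, 43.7, 44.5 and 21.4 CPM in LF 2, 3, 5 and 6, 39.7 to 69.6 (median 52.7) in HF and 22.6 to 78 (median 33.9) in HFLF. Its arms overlapped fully and the difference of HFLF from LF was -0.02 ± 0.31. Ccl2, the ligand of Ccr2, was 8.84, 6.9, 3.48 and 11.2 CPM in LF 2, 3, 5 and 6, 2.63 to 9.45 (median 5.54) in HF and 2.41 to 7.62 (median 4.16) in HFLF, with the highest value in LF 6 and a difference of -0.73 ± 0.38. Itgam, the integrin chain CD11b, was 32.6, 35.9, 24.6 and 22.3 CPM in LF 2, 3, 5 and 6, 26.9 to 44.9 (median 33.5) in HF and 9.7 to 30.0 (median 22) in HFLF. HFLF 6 was lowest, and the difference was -0.40 ± 0.25 from LF and -0.61 ± 0.22 from HF. Cd14, a co-receptor for bacterial lipopolysaccharide, differed by -0.42 ± 0.16 from LF.

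The lectin and scavenger genes were led by Clec4n, which encodes dectin-2, a receptor for fungal mannans. It was 3.11, 16.2, 0.949 and 0.574 CPM in LF 2, 3, 5 and 6, 0.733 to 2.06 (median 1.37) in HF and 0.457 to 1.68 (median 0.735) in HFLF. LF 3 alone was far above the rest, and without LF 3 the HF difference from LF went from -1.88 ± 0.66 to -0.17. Msr1, a scavenger receptor for modified lipoproteins, differed by -0.89 ± 0.26 in HFLF from LF, Lgals3, the lectin galectin-3, by -0.60 ± 0.44, and Clec7a, the beta-glucan receptor dectin-1, by -0.26 ± 0.33. The phagocyte oxidase genes Cybb (catalytic subunit) and Ncf1 (cytosolic subunit) differed by -0.51 ± 0.26 and -0.54 ± 0.24.

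**Figure D3:**
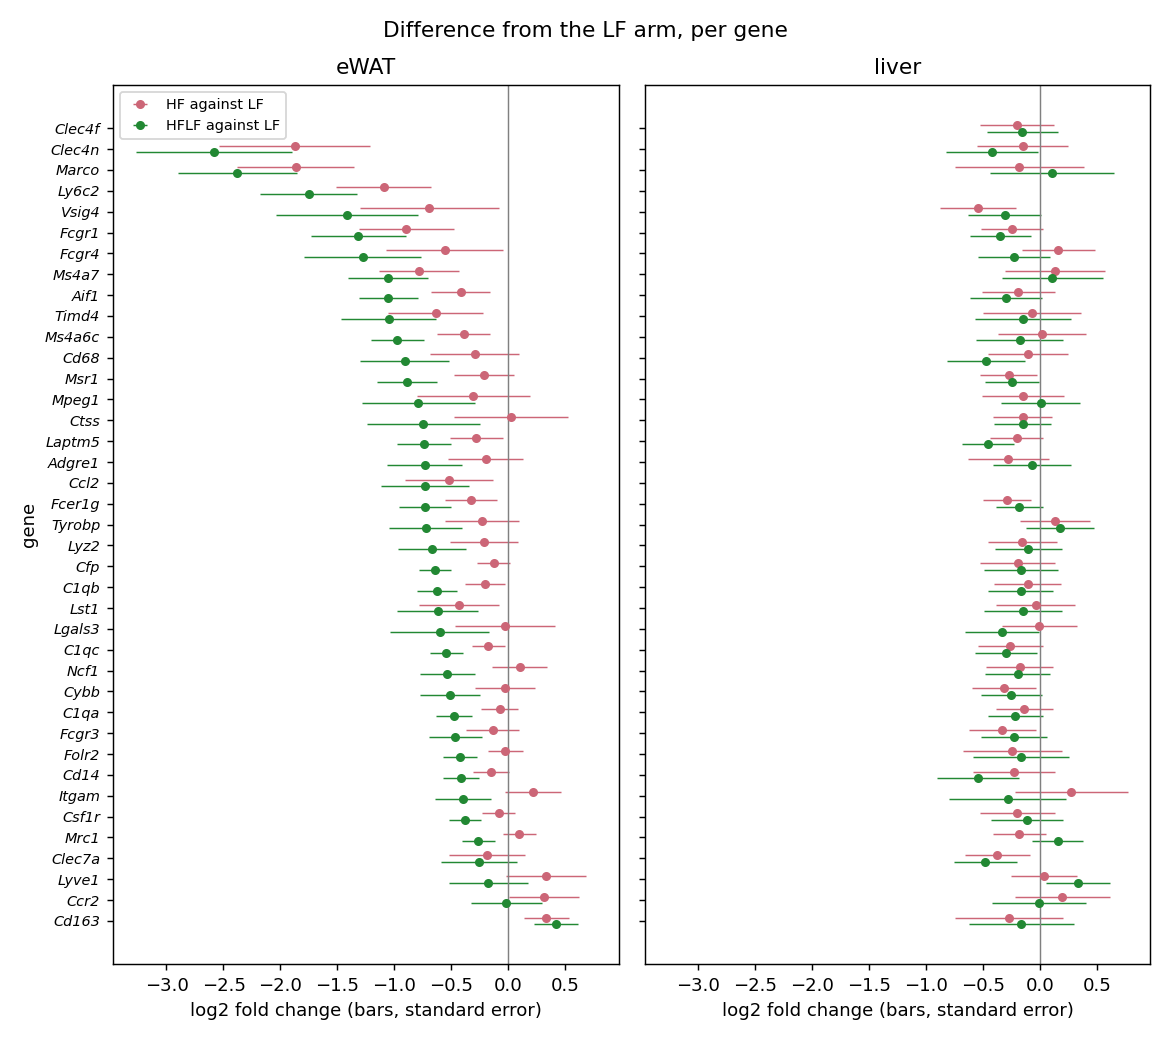
Log2 fold change (points) with standard error (bars) of each listed gene against LF, for HF and HFLF, in eWAT (left) and liver (right) by edgeR. In eWAT 37 of the 38 HFLF points lie below 0, with Cd163 above, while the liver points lie between -0.55 and 0.33.

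Between HF and LF in eWAT, 31 of 38 genes had a fold change below 0 and 7 above, beside 50.9% and 49.1% of all genes, with a median of -0.21 beside -0.004 over all genes. By edgeR 0 of the 38 and 0 genes in all passed after adjustment, against 12 genes by DESeq2, whose own filter left only 13 of the 38 with an adjusted p (25 had none, among them Marco, Ly6c2 and Clec4n), of which 0 passed. At an unadjusted p under 0.05, 5 were lower and 0 higher, beside 4.22% and 2.82% of all genes. Ranges did not overlap for 0 listed genes, beside 0.332% lower and 0.701% higher. The 3 of smallest p were Marco (-1.87 ± 0.51), Ly6c2 (-1.09 ± 0.42) and Clec4n (-1.88 ± 0.66), each at adjusted p = 0.689. Without LF 2 Ly6c2 stood at -0.33. The median was 0.03 without LF 3 and -0.42 without HF 2. Between HFLF and HF, 37 of 38 were below 0 and 1 above, beside 49.7% and 50.3% of all genes, with a median of -0.47 beside 0.001 over all genes. By edgeR 0 passed, against 52 genes by DESeq2, 1 of them (Cfp) among the 21 of the 38 that had an adjusted p (17 had none). By edgeR 13 were lower and 0 higher at an unadjusted p under 0.05, beside 4.43% and 4.86% of all genes. Next to Cfp, the smallest p belonged to Folr2 (-0.40 ± 0.13, adjusted p = 0.433 by edgeR) and Ncf1 (-0.63 ± 0.22, adjusted p = 0.44). Leaving out 1 library at a time kept this median between -0.56 and -0.31.

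Markers of other cells that a fat pad can hold were set beside these values in HFLF against LF, where 47.9% of all genes were below 0 and 7.06% lower at an unadjusted p under 0.05. All 8 B cell markers were lower at an unadjusted p under 0.05, with a summed level of 10.6 to 464 CPM in LF, 9.84 to 178 in HF and 8.30 to 18.2 in HFLF. T and NK cell markers were lower for 12 of 12, 6 at an unadjusted p under 0.05, with sums of 14.4 to 106 CPM in LF and 14.7 to 23.8 in HFLF. Hepatocyte markers were lower for 8 of 8, 6 at an unadjusted p under 0.05, with sums of 1528 to 6888 CPM in LF and 2001 to 4354 in HFLF. All 5 testis markers were lower at an unadjusted p under 0.05, with sums of 0.0707 to 23.6 CPM in LF and 0.197 to 1.19 in HFLF; each of the 5 was at 0 in at least 1 eWAT library. Neutrophil markers, of which 4 of 9 were in the table, were lower for 4 of 4, 1 at an unadjusted p under 0.05. Dendritic cell markers were split, 5 of 8 lower with a median of -0.06. Mast cell markers were lower for 4 of 5, 0 at an unadjusted p under 0.05, with sums of 43.3 to 60.5 CPM in LF and 24.2 to 72.5 in HFLF. Fibroblast markers were lower for 2 of 5, 1 at an unadjusted p under 0.05, with sums of 2518 to 5835 CPM in LF and 2219.9 to 3645 in HFLF. Mesothelial markers were lower for 2 of 6, with sums of 107 to 229 CPM in LF and 6.29 to 335 in HFLF. Adipocyte markers (median 0.11) and endothelial markers (median 0.10) were near 0. The part of any of these in the listed genes was not tested.

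Other genes of the same pathways were counted in HFLF against LF, with 0 called by edgeR; of all genes 47.9% were below 0 and 7.06% lower at an unadjusted p under 0.05. Of 14 genes of Fc and ITAM signalling, all were lower, 9 at an unadjusted p under 0.05, with a median of -0.82. Of 13 genes of CSF1 signalling and macrophage differentiation, 11 were lower, 4 at an unadjusted p under 0.05, led by Spi1 (-0.75 ± 0.28), which had 46.8 ± 15.9 CPM in LF and 26.7 ± 9.23 in HFLF. Among the 5 further oxidase genes 4 were lower, each at an unadjusted p under 0.05, led by Rac2 (-1.15 ± 0.34). Among 13 chemokines and chemokine receptors 12 were lower, 3 at an unadjusted p under 0.05, led by Ccl3 (-1.32 ± 0.43). Arg1, arginase, had the smallest p of the 7 inflammatory genes measured (-2.69 ± 0.59), of which 5 were lower, 2 at an unadjusted p under 0.05. The part of hepatocyte transcripts in Arg1 was not tested. Hmox1, haem oxygenase, led the 10 genes of Kupffer cells and iron recycling (-1.83 ± 0.47), of which 8 were lower, 5 at an unadjusted p under 0.05. Of the 12 genes of lipid-associated macrophages, which surround dying fat cells, 9 were lower but only 1, Spp1 (-4.47 ± 1.10), at an unadjusted p under 0.05. Spp1 ran from 1.70 to 160.1 CPM in LF, so its mean rested on 1 library. These 12 genes together averaged 18917 CPM in LF, 18265 in HF and 19961 in HFLF. The listed macrophage and monocyte genes together averaged 3686, 3432 and 2409 CPM in the same arms. The part of adipocyte transcripts in the 12 genes was not tested, so their counts are no measure of macrophages alone.

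In liver the arms were close. Of 37 listed genes, 30 were below LF in HF and 7 above (50.6% and 49.4% of all genes), and 31 below and 6 above in HFLF (49.9% and 50.1%), with medians of -0.18 in both. In HFLF against HF, 20 were below and 17 above (49.1% and 50.9%), with a median of -0.02. By edgeR 0 of the 37 and 0 genes in all passed in any of the 3 comparisons, and 0 of the 37 had an unadjusted p under 0.05. Over all genes the share at an unadjusted p under 0.05 was 1.68% lower and 1.92% higher in HF against LF, 2.65% and 2.82% in HFLF against LF, and 0.914% and 0.951% in HFLF against HF. Ranges did not overlap between arms for 0 of the 37, beside 0.951% lower and 0.446% higher in HF against LF, 0.914% and 0.271% in HFLF against LF, and 0.0804% and 0.0658% in HFLF against HF. DESeq2 called 1, 11 and 0 genes, and 0 listed genes in each; in HFLF against LF its filter left only 16 of the 37 with an adjusted p, and 21 had none. The direction rested on single animals. LF 6 held the highest value of 23 of the 37 genes, and without it the median was 0.16 in HF and 0.10 in HFLF against LF. Without HF 2, which held the highest value of 8 genes, the median in HF against LF was -0.42.

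Clec4f, the galactose-binding lectin that marks Kupffer cells, was 68.6, 85, 48.3 and 146 CPM in LF 1, 2, 3 and 6, 45.1, 129, 60.2, 54.4 and 80.3 in HF 1, 2, 3, 5 and 6, and 56.4 to 96.4 (median 75.9) in HFLF. LF 6 and HF 2 were the high libraries and the other values overlapped across arms, with a log2 fold change of -0.20 ± 0.33 in HF and -0.16 ± 0.31 in HFLF. Vsig4 was 12.9, 15.5, 8.65 and 32.5 CPM in LF 1, 2, 3 and 6, 9.24, 18.1, 7.76, 10.1 and 13 in HF 1, 2, 3, 5 and 6, and 10.04 to 17.6 (median 14.6) in HFLF, with LF 6 highest. It had the smallest p of the listed genes in HF against LF (-0.55 ± 0.33, adjusted p = 1.00 by edgeR), and -0.06 without LF 6. Timd4 was 3.21, 3.79, 1.97 and 9.03 CPM in LF 1, 2, 3 and 6, 2.49, 7.02, 4.17, 2.44 and 4.85 in HF 1, 2, 3, 5 and 6, and 2.76 to 7.93 (median 3.33) in HFLF, with LF 6, HFLF 6 and HF 2 on top. Marco was 5.9, 10.4, 2.03 and 10.7 CPM in LF 1, 2, 3 and 6, 2.13, 10.2, 6.43, 5.23 and 6.79 in HF 1, 2, 3, 5 and 6, and 2.45 to 16.5 (median 5.76) in HFLF. Its highest library was HFLF 6, and LF 2 and LF 6 were level. Cd163 was 9.84, 11.9, 5.72 and 30.5 CPM in LF 1, 2, 3 and 6, 4.76, 19, 8.45, 9.37 and 17.4 in HF 1, 2, 3, 5 and 6, and 7.04 to 19.4 (median 12.2) in HFLF, highest in LF 6. Csf1r was 29.5, 34.4, 26.1 and 75.7 CPM in LF 1, 2, 3 and 6, 25.6, 55.8, 31.2, 26.7 and 36.7 in HF 1, 2, 3, 5 and 6, and 23.6 to 53.2 (median 36.5) in HFLF, and Adgre1 was 5.64, 11.2, 5.59 and 22 CPM in LF 1, 2, 3 and 6, 5.97, 12.4, 9.44, 6.72 and 9.92 in HF 1, 2, 3, 5 and 6, and 7.19 to 13.6 (median 9.75) in HFLF. Both were highest in LF 6 and overlapped across arms.

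**Figure D4:**
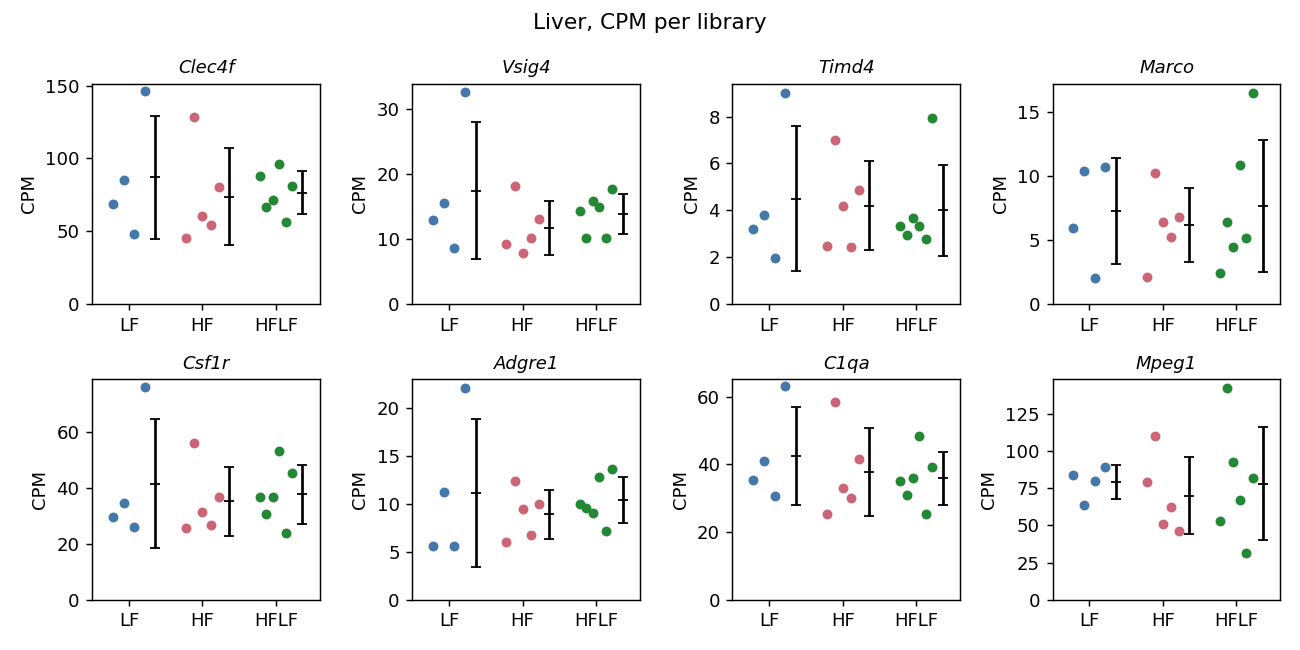
CPM per library (points) in liver for 8 listed genes by arm (LF, n = 4; HF, n = 5; HFLF, n = 6), each axis from 0, with black bars for mean and SD. LF 6 and HF 2 are the top points for Clec4f, Csf1r and C1qa, while Mpeg1 is highest in a HFLF library at 143 CPM.

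Other liver values were as follows. Cd68 was 5.71, 7.91, 5.21 and 13.5 CPM in LF 1, 2, 3 and 6, 6.4, 14.3, 3.82, 5.5 and 6.86 in HF 1, 2, 3, 5 and 6, and 3.05 to 7.13 (median 5.86) in HFLF. Lyz2 was 27.2, 37.2, 24.6 and 62.3 CPM in LF 1, 2, 3 and 6, 27.5, 48.5, 29.2, 25.9 and 34.5 in HF 1, 2, 3, 5 and 6, and 21.8 to 56.4 (median 30.4) in HFLF. C1qa was 35.4, 41.1, 30.5 and 63.2 CPM in LF 1, 2, 3 and 6, 25.4, 58.4, 32.9, 30.1 and 41.6 in HF 1, 2, 3, 5 and 6, and 25.3 to 48.3 (median 35.6) in HFLF. All 3 genes had overlapping arms and were highest in LF 6 or HF 2. Among the monocyte genes, Ccr2 was 0.984, 1.08, 1.65 and 1.36 CPM in LF 1, 2, 3 and 6, 2.35, 1.24, 0.347, 2.04 and 1.27 in HF 1, 2, 3, 5 and 6, and 0.788 to 1.98 (median 1.12) in HFLF, and Itgam was 0.328, 0.867, 0.509 and 0.585 CPM in LF 1, 2, 3 and 6, 0.924, 1.02, 0.347, 0.407 and 0.597 in HF 1, 2, 3, 5 and 6, and 0.0719 to 0.87 (median 0.37) in HFLF, with the lowest HFLF value of Itgam below the detection floor. Fcgr4 was 2.23, 2.71, 2.22 and 4.87 CPM in LF 1, 2, 3 and 6, 1.64, 5.77, 3.59, 2.85 and 2.54 in HF 1, 2, 3, 5 and 6, and 1.9 to 3.65 (median 2.4) in HFLF. In these low genes the arms also overlapped. After Vsig4, the smallest p in HF against LF belonged to Fcer1g (-0.29 ± 0.21) and Clec7a (-0.37 ± 0.28), each at adjusted p = 1.00 by edgeR. Without LF 6 they stood at -0.13 and 0.05. In HFLF against LF it was Laptm5, a lysosomal membrane protein of blood cells (-0.46 ± 0.23, adjusted p = 0.868), Clec7a (-0.48 ± 0.28, adjusted p = 0.868) and Cd14 (-0.55 ± 0.36, adjusted p = 0.874). Without LF 6 these 3 stood at -0.21, -0.04 and -0.27. In HFLF against HF it was Mrc1 (0.34 ± 0.21), Fcgr4 (-0.39 ± 0.30) and Itgam (-0.56 ± 0.47), each at adjusted p = 1.00. Without HF 2 Fcgr4 stood at -0.10, and without HFLF 1 Itgam stood at -0.31. Itgam lay under the floor in HFLF 1 (0.0719 CPM) and also in HFLF 5 (0.197 CPM). Liver sinusoidal endothelium also expresses Mrc1 and Lyve1.

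Mpeg1, which encodes the pore-forming protein perforin-2, was, in liver, 84, 63.5, 79.9 and 89.6 CPM in LF 1, 2, 3 and 6, 79.4, 110.3, 50.8, 62.5 and 46.5 in HF 1, 2, 3, 5 and 6, and 31.4 to 143 (median 74.4) in HFLF. HFLF 2 was its highest library and HF 2 the next, and the arms overlapped. In eWAT it was 149, 351, 80.6 and 78.3 CPM in LF 2, 3, 5 and 6, 66.8 to 311 (median 99.2) in HF and 45.8 to 145 (median 86.9) in HFLF, highest in LF 3 and HF 2 as for Adgre1 and Cd68.

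Of the pathway lists in liver, 0 genes were called by edgeR in HFLF against LF, where 49.9% of all genes were below 0. All 12 genes of CSF1 signalling and differentiation were lower, with a median of -0.12, and Csf2ra had the smallest p (-0.30 ± 0.24). Fc and ITAM signalling had 10 of 14 lower, led by Sirpa (-0.22 ± 0.17), the oxidase genes 5 of 5, led by Rac2 (-0.24 ± 0.28), and the inflammatory genes 3 of 4, led by Arg1 (-0.15 ± 0.15). Of 7 chemokines and receptors 4 were lower, and the smallest p was that of Ccl5, which was higher (0.76 ± 0.49). In these 5 lists 0 genes had an unadjusted p under 0.05. Of 9 genes of Kupffer cells and iron recycling 7 were lower, 0 of them at an unadjusted p under 0.05, and 1 of the 2 higher was: Pltp, phospholipid transfer protein (1.36 ± 0.59). Of 12 lipid-associated genes 10 were lower, 1 at an unadjusted p under 0.05, and 2 higher, 1 at an unadjusted p under 0.05: the fatty acid transporter gene Cd36 (0.53 ± 0.21). Pltp and Cd36 are also expressed by hepatocytes, and the part of hepatocyte transcripts in Arg1 was not tested in liver either.

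Between the tissues, most listed genes took a larger share of the counts in eWAT than in liver. In 1 edgeR fit of all 31 libraries over 12735 genes, 29 of 36 were called higher in eWAT and 3 higher in liver, beside 42.9% and 42.6% of all genes, with a median log2 difference of 1.84. The sample titles give 14 pairs of an eWAT and a liver library the same arm and number, which may be 1 animal each, and this fit treats all 31 libraries as separate; with arm and number as a block in limma voom (estimated correlation 0.006) 29 and 3 were called too. A few liver genes take a large part of that tissue's counts, so the scaling matters: with library totals alone the median of all genes moved to 0.73, that of the listed genes to 2.58, and Vsig4 was the 1 listed gene called higher in liver. Vsig4 was 2.08 CPM in eWAT and 14 in liver on average, with no overlap, and its log2 difference of eWAT from liver was -3.51 ± 0.28 (adjusted p = 7.21e-13 by edgeR) and -2.78 with library totals alone. Marco (-1.30 ± 0.31) and Fcgr4 (-0.85 ± 0.25) were called higher in liver with TMM scaling, but with library totals alone they stood at -0.56 (adjusted p = 0.0913) and -0.12 (adjusted p = 0.665). Timd4 was not called, at -0.42 ± 0.25 with TMM and 0.32 with totals alone. Lgals3, Itgam, Ccr2 and Lyz2 had the largest differences towards eWAT: their mean CPM was 58.4, 50.6, 34.5 and 19.2 times that of liver. The fold of Itgam is loosely set, since its liver mean was 0.552 CPM with single values near or under the floor. Itgam also shares exon bases with Gm49368. Csf1r was 5.76 times and C1qa 5.65 times higher in CPM. In CPM, 25 of the 36 genes had eWAT values above all liver values, and 1, Vsig4, had liver values above all eWAT values. The share of all 12735 genes without overlap between the tissues was not computed, so these counts only describe the listed genes. Per kilobase, C1qa led in liver at 36.8 CPM per kb, followed by C1qb at 32.4 and Clec4f at 31.7.

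**Figure D5:**
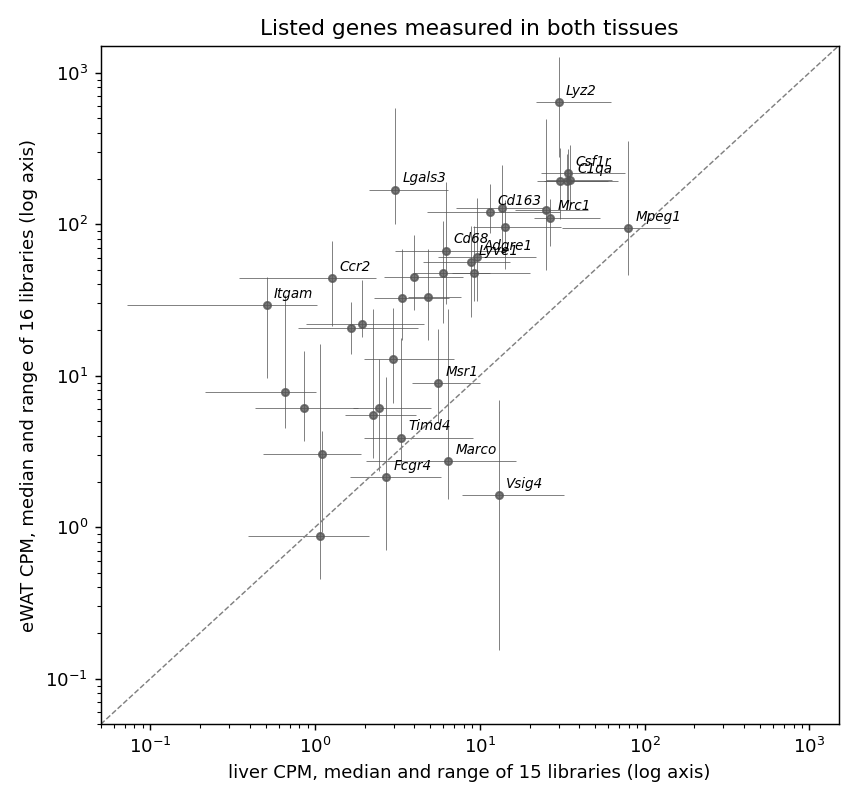
Median CPM (points) and range over libraries (bars) of the 36 listed genes measured in both tissues, liver (n = 15) on the horizontal and eWAT (n = 16) on the vertical log axis, with a dashed line of equal level. Most points lie above the line, Lgals3, Itgam and Ccr2 farthest, and Vsig4 lies below it without overlap.

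Whether the arms differed more in eWAT than in liver was tested as the interaction of tissue and arm. For HFLF against LF, 33 of 36 genes had a more negative difference in eWAT, with a median of -0.47, and 3 a more positive one, beside 49.2% and 50.8% of all genes. At an unadjusted p under 0.05, 2 were lower and 0 higher, beside 3.33% and 2.51%. By edgeR 0 of the 36 and 0 genes in all passed, against 23 genes by DESeq2. Marco had the smallest p (-2.50 ± 0.78, unadjusted p = 0.00343, adjusted p = 0.587), then Clec4n (-2.15 ± 0.88) and Tyrobp (-0.90 ± 0.47). The median was -0.27 without eWAT LF 3 and -0.82 without liver LF 6. Without eWAT LF 3 Clec4n stood at -0.48 and Tyrobp at -0.57, and without eWAT LF 2 Marco stood at -1.77. For HFLF against HF, Mrc1 had the smallest p, at -0.71 ± 0.25 (adjusted p = 0.952 by edgeR).

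Ratios between genes were taken within each library. C1qc over C1qb, per kilobase, was 0.469 to 0.658 over 16 eWAT libraries and 0.478 to 0.651 over 15 liver libraries, a coefficient of variation of 8.4% and 8.77%. Clec4f over Csf1r in liver was 4.12 to 5.78, with means of 5.01 in LF, 4.78 in HF and 4.87 in HFLF, while Clec4f itself varied 3.24-fold. Lyz2 over Csf1r was 13.1 ± 2.88 in eWAT (SD, n = 16) and 4.1 ± 0.412 in liver (SD, n = 15), without overlap. Vsig4 over Csf1r was 0.108 or less in eWAT and 0.967 or more in liver. Marco over Csf1r in eWAT was 0.0343 to 0.33 in LF and 0.0289 to 0.0469 in HFLF. These ratios do not depend on library size.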

How the data were processed

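RNA of eWAT (16 libraries) and liver (15) was sequenced. The submitters' processing notes name STAR and GRCm38.p6. How reads were counted, with which strand setting and which CPM minimum, is not given in the sources used here. Counts are whole numbers, deposited by the authors after a filter on CPM. A deposited RPKM table per tissue was not used, since for 1 gene its ratio to the count differed many times between libraries. CPM was computed from the counts of each library, and exon lengths and positions came from GENCODE M21. Members and lists were chosen with earlier results of these data known.

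edgeR 4.0.16 in R 4.3.3 fitted a robust quasi-likelihood model with TMM factors and 1 term per arm to all libraries of a tissue, and 1 term per tissue and arm to all 31 libraries for the tissue comparison and the interactions. The filter filterByExpr removed 0 genes. P-values were adjusted by Benjamini-Hochberg over all genes, with a threshold of 0.05. Mean log2 CPM used a prior count of 2. On simulated counts for HF against LF in eWAT (15987 genes) the test was checked. Libraries of the same tissue and arm were compared pairwise, and none agreed within sampling noise. Libraries of different arms were not compared in this way. Alternatives were DESeq2 1.42.0, limma voom (limma 3.58.1), upper-quartile scaling, library totals alone, at least 1 CPM in 4 libraries, no filter, only the 2 arms compared, a replicate block, leaving out each library, and, chosen after seeing the data, leaving out eWAT libraries high in testis or B cell markers.

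Any of the 39 genes may be named. Values by library are given for the main markers of each role, and in each arm comparison the 3 of smallest unadjusted p are named. Of other lists, counts are given with the gene of smallest p. For 1 list in eWAT that gene is not reported here. Clec4n, Cfp, Aif1, Mpeg1 and the ratios were singled out after their values were seen.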

Additional observations from a re-analysis of the deposited data

Results flagged for a closer look

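In groups of 4 to 6 libraries, a value was picked out when its gap to the nearest other value took up an unusually large part of the group's range by Dixon's criterion. Of 117 groups tested, 13 were picked out. The criterion picks out about 1 in 20 groups when these are independent and normally distributed. Here the groups share libraries and most hold untransformed CPM, so that rate is no measure of an excess. No explanation was tested. In eWAT, library HF 2 was high for Adgre1 (139 CPM against 53.7 to 75.8 in the other libraries of the arm), Cd68 (188 CPM against 53.2 to 90.7 in the other libraries) and Fcgr4 (6.33 CPM against 0.896 to 2.78 in the other libraries). HF 5 was high for Vsig4 (5.16 CPM against 0.268 to 1.98 in the other libraries) and Marco (6.93 CPM against 1.88 to 3.38 in the other libraries). Clec4n stood apart in LF 3 (16.2 CPM against 0.574 to 3.11 in the other libraries) and in HFLF 4 (1.68 CPM against 0.457 to 0.789 in the other libraries). In liver, LF 6 was high for Csf1r (75.7 CPM against 26.1 to 34.4 in the other libraries), Clec7a (6.95 CPM against 2.56 to 3.11 in the other libraries) and Mrc1 (53.3 CPM against 21.4 to 26.7 in the other libraries). HF 2 was high for Cd14 (4.6 CPM against 1.45 to 1.97 in the other libraries) and Fcer1g (7.09 CPM against 3.73 to 4.63 in the other libraries), and HFLF 6 for Timd4 (7.93 CPM against 2.76 to 3.69 in the other libraries).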

How the results depend on the processing

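By edgeR with TMM scaling 0 genes were called in any arm comparison or interaction. DESeq2 called 12 genes in eWAT HF against LF, 69 (6 listed) in HFLF against LF and 52 (1 listed) in HFLF against HF, 1 in liver HF against LF, 11 in liver HFLF against LF, and 23 in the interaction of HFLF against LF; the cause was not tested. The listed genes lower at an unadjusted p under 0.05 in eWAT HF against LF, 5 as reported, numbered 1 with voom, 3 with only the 2 arms in the fit and 3 without the libraries high in testis markers. Leaving out 1 library at a time gave 3 to 6 such genes there and 14 to 27 in eWAT HFLF against LF. In that second comparison 0 to 13 genes and 0 to 1 listed genes were called. The interactions of HFLF against LF and against HF gave 0 to 1 genes. The share of all genes at an unadjusted p under 0.05 was not computed for any alternative fit. The fit without the libraries high in testis markers kept only LF 2 and LF 5 in the LF arm. For eWAT against liver, library totals alone gave 1 listed gene higher in liver and medians of 2.58 for the listed genes and 0.73 for all. Directions turned for Clec7a in liver HF against LF without LF 6 (0.0544; range over single libraries -0.563 to 0.0544), for Clec4n in the interaction of HF against LF without eWAT LF 3 (0.00142; range -2.05 to 0.00142), and for eWAT against liver in Clec4n (0.00561 with upper-quartile scaling, 0.60 with totals alone), Timd4 (0.32 with totals alone), Mpeg1 (0.13 and 0.74; -0.231 to 0.0801 without 1 library) and Msr1 (-0.0154 to 0.135 without 1 library).

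The replicate numbers were checked as pairs. In eWAT, same-numbered libraries of HF and LF correlated at -0.107 to 0.350 over 4 pairs. HFLF and LF gave 0.0639 to 0.121 over 4, and HFLF and HF -0.338 to 0.375 over 6. In liver, HF and LF gave 0.0792 to 0.384 over 4. HFLF and LF there gave -0.0335 to 0.254 over 4, and HFLF and HF -0.105 to 0.246 over 5. For eWAT and liver of the same arm and number it was -0.0716 to 0.136 over 14. Different tissues of 1 animal need not correlate, so these values cannot tell whether a pair was 1 animal. The main fits used no pairing by number. With the replicate block 3 listed genes were lower at an unadjusted p under 0.05 in eWAT HF against LF, and 1 gene was called in liver HFLF against LF. Low counts limit Vsig4 in eWAT and Itgam in liver, where single values lay near or under the floor of 3 counts, and 4 LF libraries limit every comparison with LF.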
